A study of Mus musculus with 8 samples.

Results

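Llgl1, Cdc42ep1, Rap2b and B9d1 are genes of cell polarity, small GTPase signalling and the primary cilium, and all 4 read lower in GFP-positive than in GFP-negative cells of the newborn mouse cortex. Their probes were found by the RefSeq transcript given for each probe, with the version dropped: NM_008502.1 for Llgl1, NM_027219.1 for Cdc42ep1, NM_028712.3 for Rap2b and NM_013717.1 for B9d1. Each gene had 1 probe, so the set holds 4 of 33012 gene probes and 4 of the 311 genes that could be given a symbol. The genes were picked with their differences between these same arrays known, so their levels and differences are given as a description, with no p of their own.

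The cells came from the cerebral cortex of GAD67-EGFP+/- mice at postnatal day 0, a heterozygous line in which EGFP marks cells that use the gene for GAD67, a GABA-making enzyme. Dissociated cells were sorted by fluorescence into GFP+ (GFP-positive) and GFP- (GFP-negative) fractions, both carrying the same allele, and RNA was taken straight from the sorted cells. The 4 biological replicates of each fraction were labelled with digoxigenin from 500 ng of total RNA and read on 8 one-colour arrays. The sources used here do not say if each replicate comes from 1 pup or from pooled pups, so the spread between arrays may be partly technical. GFP-positive cells are taken to be GABAergic neurons by the sort alone: none of 18 listed markers of these neurons was matched to a probe, so the label could not be checked. The GFP-negative fraction is whatever else the dissociated cortex held, and may include other neurons, progenitors, glia, vessel and blood cells.

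The members act at different places in a cell. Llgl1 is a mammalian counterpart of the Drosophila tumour suppressor lethal giant larvae, which works with Scribble and Discs large at the basolateral side of polarized cells and opposes atypical protein kinase C at the apical side. Rap2b is a Ras-family GTPase, a switch that is on when bound to GTP, and Cdc42ep1 (also Borg5) is a Borg protein that binds the GTP-bound form of the GTPase Cdc42 and also binds septins. B9d1 is a B9-domain protein of the transition zone, the gate at the base of the primary cilium, where it belongs to the complex named after Meckel syndrome. In the developing cortex, progenitors at the ventricle are polarized and extend a primary cilium into the ventricle, and neurons also carry cilia.

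The promoters of the members are shown because the 4 genes read lower together. Each line holds 160 bases, from 150 before the annotated start to 10 from it, 5′ to 3′, from RefSeq on build GRCm38.p6. All lie on the plus strand: Llgl1 at chr11:60699550-60699709, Cdc42ep1 at chr15:78842497-78842656, Rap2b at chr3:61364357-61364516 and B9d1 at chr11:61504994-61505153. Capitals mark the GC box GGGCGG on either strand in Cdc42ep1 and Rap2b, an outline of the RFX X-box in B9d1, and a ZNF143 core in Llgl1.
Llgl1: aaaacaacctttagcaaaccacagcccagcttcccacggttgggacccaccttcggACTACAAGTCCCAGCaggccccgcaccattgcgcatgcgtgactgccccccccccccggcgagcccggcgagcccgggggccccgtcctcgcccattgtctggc
Cdc42ep1: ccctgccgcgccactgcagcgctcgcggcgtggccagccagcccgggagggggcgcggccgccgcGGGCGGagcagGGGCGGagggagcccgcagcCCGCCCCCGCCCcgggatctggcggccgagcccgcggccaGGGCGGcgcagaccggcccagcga
Rap2b: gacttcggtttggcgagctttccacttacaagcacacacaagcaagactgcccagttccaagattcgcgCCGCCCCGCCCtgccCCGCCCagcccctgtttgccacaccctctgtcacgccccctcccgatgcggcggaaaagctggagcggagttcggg
B9d1: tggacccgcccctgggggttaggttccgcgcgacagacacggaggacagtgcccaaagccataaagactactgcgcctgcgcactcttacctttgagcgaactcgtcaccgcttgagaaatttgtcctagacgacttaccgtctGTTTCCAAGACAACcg
All 4 windows were rich in CpG. Over the full 300 bases of the table, the G+C content was 60.33% for B9d1, 62.67% for Llgl1, 66.33% for Rap2b and 80.0% for Cdc42ep1, against a median of 52.67% over all 32851 promoter windows. The ratio of observed to expected CpG was 0.781 to 0.884 in the 4, against a median of 0.384. From 77.53% (Llgl1) to 86.03% (B9d1) of all windows had a lower ratio, so this richness is not particular to the members.

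The windows differed in their motifs, which were searched as letters on both strands. GGGCGG occurred 5 times in Cdc42ep1, 4 times in Rap2b, where 2 matches share a base, and once each in Llgl1 and B9d1, and 35.7% of all windows hold it. These counts are over the 300 bases. The match in Llgl1 lies past the end of the printed sequence, and 1 of those in Rap2b runs past it. That Rap2b match, as far as it is printed, and the match in B9d1 are in lower case. The X-box outline, searched as GTTNCC, any 5 bases and AAC, is a pattern bound by RFX factors, which are known regulators of ciliary genes. It occurred in B9d1 from base -6 to base 7, counted from 0 at the annotated start. The outline is held by 1.35% of all windows and by none of the other 3 members. The ZNF143 core, searched as ACTACAA, any base and TCCCAGC, occurred in Llgl1 from base -94 to base -80 and is held by 0.155% of all windows. B9d1 also held the NRF1 pattern, searched as GCGCA, any base and GCGC (4.6% of windows). None of the 4 windows held TATAAA (13.6% of windows), CCAAT (37.4%), the homeodomain core TAATTA (5.29%) or the E-box CAGATG (17.2%). The X-box and ZNF143 patterns were chosen after the sequences were read, and a match in letters is a description, not a bound site.

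The polarity gene Llgl1 kept 59.3% of its signal in GABAergic neurons, by the difference of the mean log2 values, and was well above background in both fractions. Deposited signals were 19876, 11793, 14519 and 14931 on the GFP-negative arrays of replicates 1 to 4, and 12995, 6924, 8087 and 7255 on the GFP-positive arrays. After quantile normalization all 4 GFP-positive values lay below all 4 GFP-negative values. The normalized log2 signal was 13.10 ± 0.10 in GFP-positive and 13.85 ± 0.20 in GFP-negative cells (SD, n = 4 each), a difference of -0.75 ± 0.16 (limma SE), or 1.69-fold lower. In the same-numbered pairs 64.6%, 66.4%, 59.8% and 48.2% of the GFP-negative signal was left. Llgl1 was the most precisely measured member, and only 8.49% of the tested probes had a smaller SE.

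Rap2b, the Ras-family GTPase, kept 50.3% of its signal in GABAergic neurons and was also well above background in both fractions. Deposited signals were 36967, 14599, 17621 and 21744 on the GFP-negative arrays and 15295, 8672, 7641 and 11226 on the GFP-positive arrays. The normalized values of the fractions did not overlap, although the gap was 0.23 on the log2 scale. The normalized log2 signal was 13.37 ± 0.25 in GFP-positive and 14.36 ± 0.37 in GFP-negative cells (SD, n = 4 each), a difference of -0.99 ± 0.23 (limma SE), or 1.99-fold lower. The shares left in the pairs were 41.4%, 65.6%, 46.5% and 50.7%, a range that overlaps that of Llgl1. GFP-negative replicate 1 read highest for Rap2b in the deposited signals, at 36967, and after normalization replicates 1 and 4 were nearly equal at 14.68 and 14.66.

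**Figure D1:**
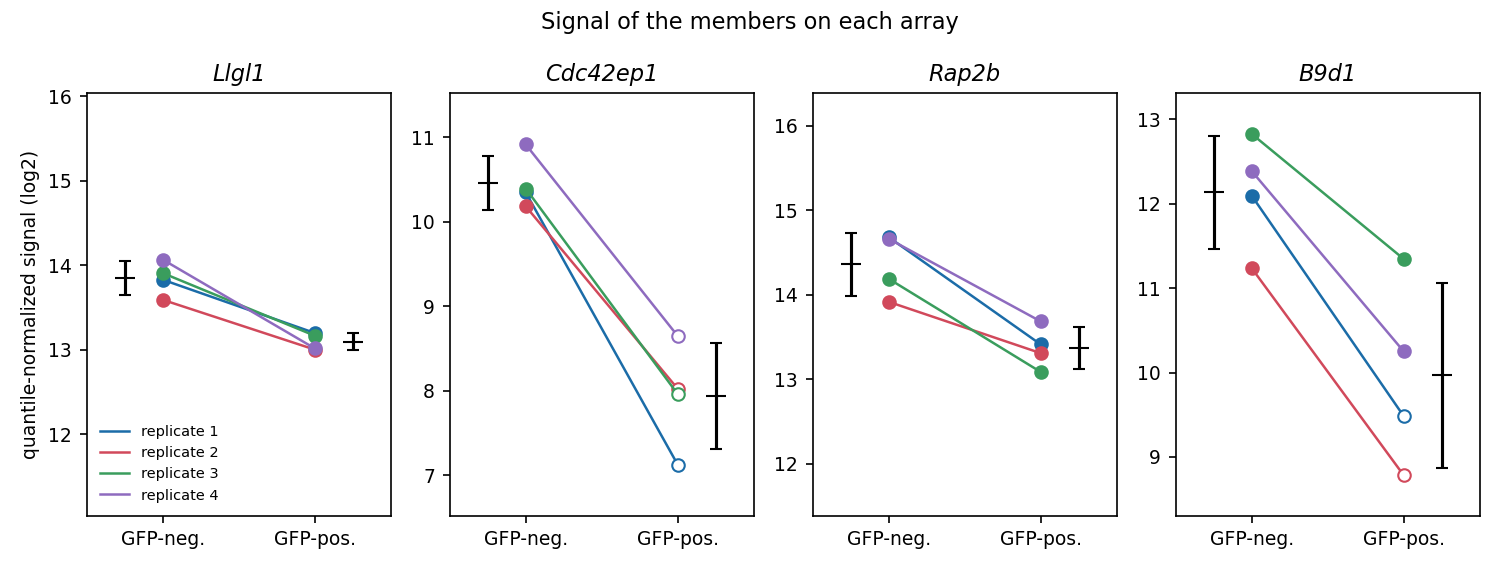
Quantile-normalized log2 signal of each member on each array. Lines join same-numbered arrays, filled points have a signal-to-noise score of 3 or more, and black bars give the mean ± SD of each fraction (n = 4). The 4 panels span equal lengths of the log2 axis at different levels. Each line falls from GFP-negative to GFP-positive, and only the B9d1 values overlap between fractions.

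Cdc42ep1, the Cdc42 effector, was at background in GABAergic neurons. Its deposited signals were 1657, 1132, 1303 and 1903 on the GFP-negative arrays and 163, 198, 231 and 395 on the GFP-positive arrays. The signal-to-noise score, here counted as above background from 3, was 13.58, 7.63, 7.15 and 6.66 in GFP-negative and 0.98, 1.65, -0.89 and 0.20 in GFP-positive cells. No GFP-positive array was therefore above background, and no score would pass even a minimum of 2. Of 98 negative control spots on each array, 33, 21, 22 and 27 read at least as bright as the Cdc42ep1 probe on the GFP-positive arrays, against 2 on each GFP-negative array. On 3 of the 4 GFP-positive arrays, those of replicates 1, 3 and 4, the spot carried the quality flag 1, whose meaning is not given in the sources used here. These spots had the 3 lowest scores of the probe, so the flag may not be separate from the score.

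The size of the Cdc42ep1 difference is thus uncertain. The normalized log2 signal was 10.46 ± 0.32 in GFP-negative cells and a measured 7.94 ± 0.63 in GFP-positive cells (SD, n = 4 each), a difference of -2.52 ± 0.32 (limma SE). With each GFP-positive array set to no less than its dimmest probe above background, Cdc42ep1 was 5.73-fold lower, against a measured 5.75-fold. That floor raised replicate 1 alone. The other GFP-positive arrays read above the floor (8.02, 7.96 and 8.65 in replicates 2, 3 and 4) without reaching a score of 3. The fold is therefore an estimate from signals at background, not a firm limit. The measured shares of 10.7%, 22.3%, 18.5% and 20.7% rest on GFP-positive signals that were not above background, so the share left is uncertain. By the detection rule this is a full loss: above background on 4 of 4 arrays of GFP-negative cells and on 0 of 4 of GFP-positive cells. Of the 13919 gene probes above background on all GFP-negative arrays, 265 (1.9%) showed that pattern.

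B9d1, the transition-zone gene, was partly lost by the detection rule, and the GFP-positive arrays disagreed on whether it was above background. Deposited signals were 5848, 2316, 6961 and 4929 on the GFP-negative arrays and 866, 333, 2205 and 1305 on the GFP-positive arrays. The signal-to-noise score was 33.73, 14.26, 15.2 and 13.98 in GFP-negative cells and 2.09, 1.44, 12.14 and 4.81 in GFP-positive cells. B9d1 was thus above background on the GFP-positive arrays of replicates 3 and 4 and not on those of replicates 1 and 2. With a minimum of 5 in place of 3 only replicate 3 remained, and with a minimum of 2 replicate 1 was added. The negative control spots at least as bright as B9d1 on the GFP-positive arrays numbered 9, 13, 1 and 6 of 98.

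B9d1 also varied most between replicates, and the variation was shared by the fractions. The normalized log2 signal was 12.14 ± 0.67 in GFP-negative and 9.96 ± 1.10 in GFP-positive cells (SD, n = 4 each), a difference of -2.17 ± 0.55 (limma SE), or a measured 4.50-fold. Since only 2 of the 4 GFP-positive arrays were above background, this fold rests in part on signals near background, and the true one is uncertain. GFP-positive replicate 3 read 11.34, above GFP-negative replicate 2 at 11.24, so the fractions overlapped. Within every pair, however, GFP-positive was lower, with 16.4%, 18.2%, 35.8% and 22.7% of the signal left. In both fractions the order of the replicates was the same, with replicate 2 lowest, then 1, 4 and 3. With the replicate number as a block the SE of the B9d1 difference was 0.21 in place of 0.55. Of the tested probes, 93.16% had a smaller SE than B9d1 without the block.

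**Figure D2:**
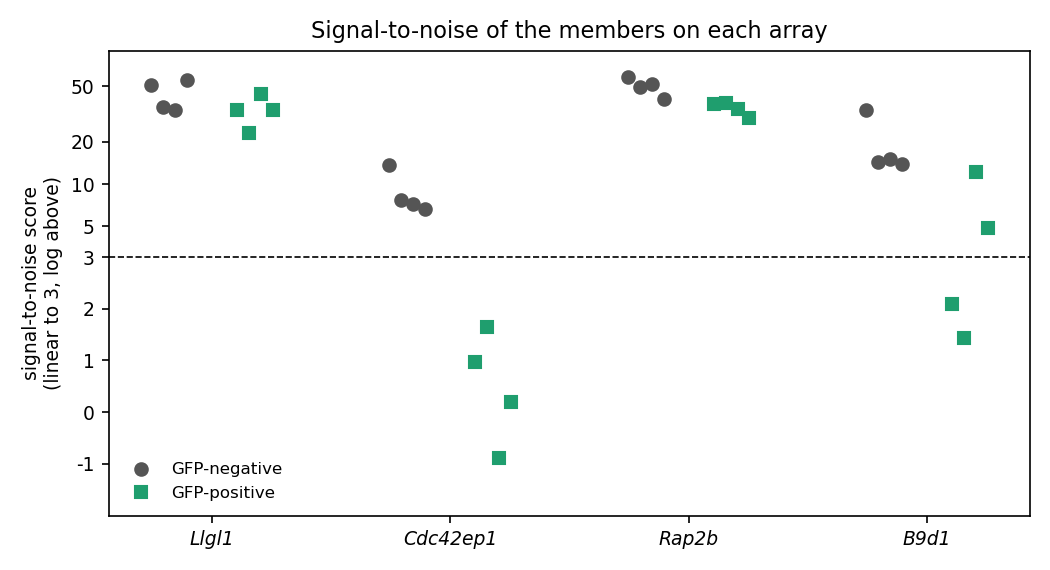
Signal-to-noise score of each member on each array, on an axis that is linear up to 3 (dashed line) and logarithmic above. Llgl1 and Rap2b lie above 3 on all 8 arrays, Cdc42ep1 lies under 3 on all 4 GFP-positive arrays, and B9d1 lies above 3 on 2 of them.

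The order of the B9d1 replicates went along a technical split of the arrays, although B9d1 also differed within each side of the split. The 3 hybridization control spots averaged a log2 signal of 15.95 to 16.27 in replicates 1 and 2, in either fraction, and 17.13 to 17.35 in replicates 3 and 4. B9d1 was higher on both arrays of replicates 3 and 4 than on both of replicates 1 and 2 in each fraction, as were 12.6% of the tested probes. None of the other 3 members showed this in both fractions. In GFP-negative cells B9d1 read 12.10 and 11.24 in replicates 1 and 2, and 12.83 and 12.39 in replicates 3 and 4. In GFP-positive cells the values were 9.48 and 8.78, and 11.34 and 10.25. Whether the control spots and the B9d1 level share a cause was not tested. Within replicates 1 and 2 the B9d1 difference was -2.53, and within replicates 3 and 4 it was -1.81. The corresponding values were -0.61 and -0.90 for Llgl1, -0.94 and -1.04 for Rap2b, and -2.69 and -2.35 for Cdc42ep1.

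GFP-negative replicate 2 read lowest of its fraction for all 4 members, at 13.59 for Llgl1, 10.18 for Cdc42ep1, 13.92 for Rap2b and 11.24 for B9d1 on the normalized log2 scale. Among all tested probes 26.8% had their lowest GFP-negative value on that array. Without it the differences were -0.84 for Llgl1, -2.62 for Cdc42ep1, -1.14 for Rap2b and -2.47 for B9d1.

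By the signal left, Llgl1 and Rap2b stood apart from Cdc42ep1 and B9d1. The shares in the pairs were 48.2% to 66.4% for Llgl1 and 41.4% to 65.6% for Rap2b, and 10.7% to 22.3% for Cdc42ep1 and 16.4% to 35.8% for B9d1. The lowest share of Llgl1 or Rap2b lay above the highest of Cdc42ep1 or B9d1, whose shares overlapped each other. All 4 shares of Cdc42ep1, and those of B9d1 in replicates 1 and 2, come from GFP-positive signals not above background, so these shares are uncertain. The number of GFP-positive arrays above background, 0 for Cdc42ep1 and 2 for B9d1, also depends on where a probe starts. The GFP-negative scores were 6.66 to 13.58 for Cdc42ep1 and 13.98 to 33.73 for B9d1, and a lower score passes under 3 at a smaller loss. Full against partial loss therefore does not rank these genes by how much was lost. Among the 1514 probes that were called lower and above background on all GFP-negative arrays, 56.8% were above background on all 4 GFP-positive arrays, as Llgl1 and Rap2b were, 7.93% on 2, as B9d1 was, and 16.8% on none, as Cdc42ep1 was.

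**Figure D3:**
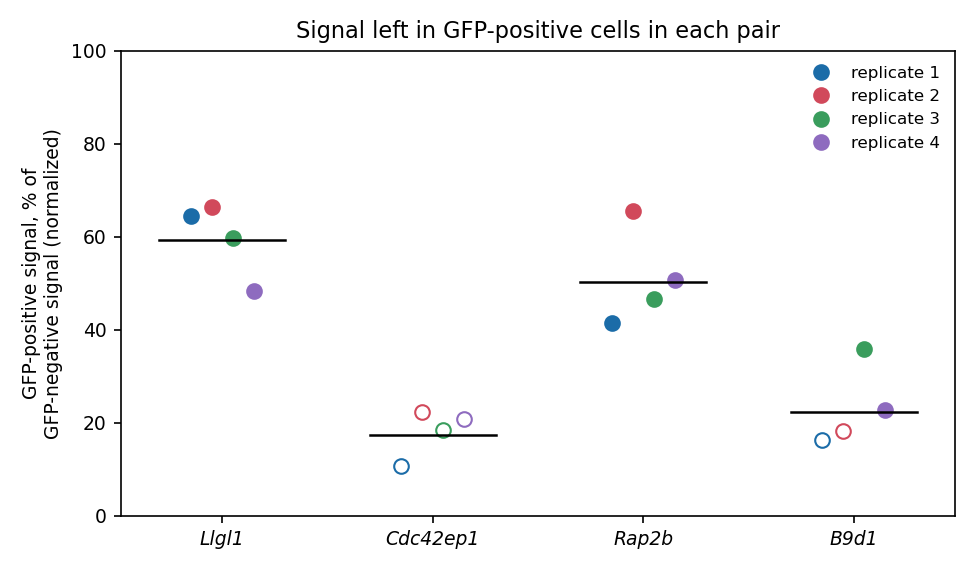
GFP-positive signal as a percentage of the GFP-negative signal of the same-numbered array, from normalized values, with black lines at the share given by the difference of the mean log2 values. Open points had a GFP-positive signal-to-noise score under 3. Llgl1 and Rap2b keep 41.4% to 66.4%, and Cdc42ep1 and B9d1 10.7% to 35.8%.

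All 4 members were among the probes called lower by limma at a Benjamini-Hochberg adjusted threshold of 0.05 over 16875 tested probes, of which 9.1% were called lower and 14.5% in either direction. With the replicate number as a block 13.1% were called lower and 24.0% in either direction, again with all 4 members. Nothing is read from this count, since the members were chosen from this contrast, and it is no test of them. Cdc42ep1 passed the filter on dim probes only through its 4 GFP-negative arrays. The count was 2 of 4, Cdc42ep1 and B9d1, with median scaling, with the authors' ratio, with no scaling between arrays or with scaling to kit control spots. It was 1 of 4, Cdc42ep1, with no filter on dim probes, without pair 1, without pair 4 or within replicates 3 and 4. It was 2 of 4 without pair 3 (Cdc42ep1 and B9d1) and without GFP-negative replicate 1, GFP-negative replicate 4 or GFP-positive replicate 2 (Llgl1 and Cdc42ep1). It was 3 of 4 without GFP-negative replicate 3, GFP-positive replicate 1 or GFP-positive replicate 4, where B9d1 was not called, and without GFP-positive replicate 3, where Rap2b was not. Each of these settings with a lower count also called fewer probes lower in all than the 1535 as reported. These numbered 819 (within replicates 3 and 4) to 1424 (kit control scaling) of 16875, and 1283 of 33012 with no filter. All 4 members were lower in 4 of 4 pairs, as were 21.2% of the tested probes. For Llgl1, Cdc42ep1 and Rap2b the normalized values of the fractions did not overlap, as for 11.1% of the tested probes. The median difference of the 4 members was -1.58, against -1.88 over the 1535 probes called lower and 0.09 over all tested probes.

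**Figure D4:**
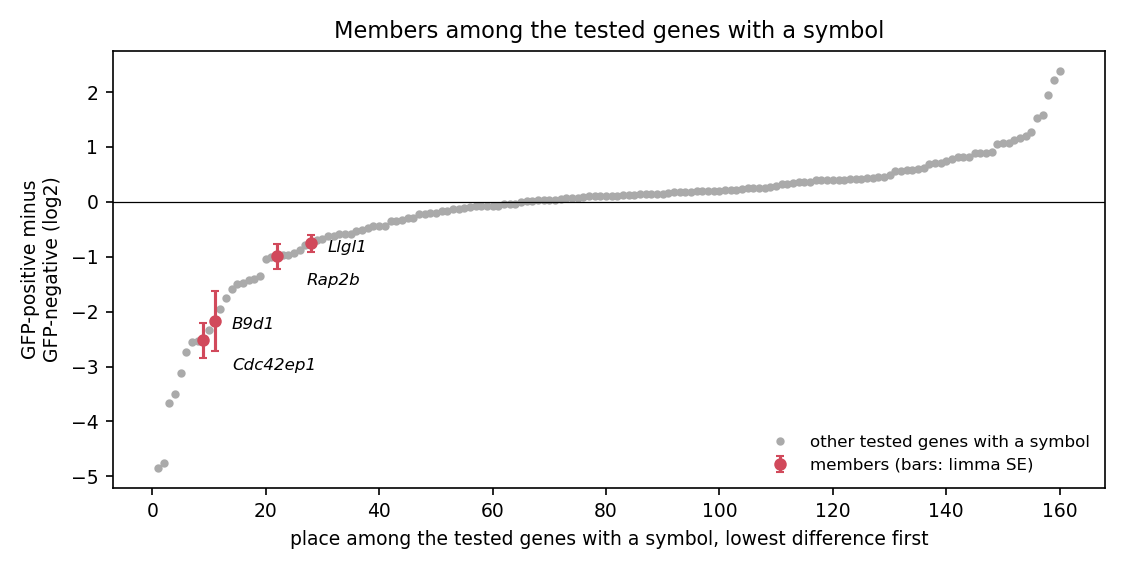
GFP-positive minus GFP-negative log2 differences of the 160 tested genes with a symbol, in order, with members in red and bars for the limma SE. The members lie on the lower side, between -2.52 and -0.75. The position of Cdc42ep1 is that of its measured value, which rests on GFP-positive signals at background, and dim probes among its neighbours have the same limit.

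The genes with the most similar profiles over the 8 arrays were sought among the 159 other tested genes with a symbol, by the root mean square difference of mean-centred log2 signals. This distance includes the difference between the fractions, on which the members were chosen, so genes with differences of a like size come out near. For Llgl1 the nearest were Tmem254a (0.18), Cd99 (0.20) and Mapk7 (0.20), against a median of 0.60 over the 159. For Rap2b they were Llgl1 (0.28), Tmem254a (0.31) and Cd99 (0.34), against a median of 0.72. For Cdc42ep1 the nearest were Bcl2a1b (0.43), Mfap4 (0.46) and Zbtb18 (0.67), against a median of 1.43. For B9d1 they were H2bc18 (0.67), Epdr1 (0.72) and Mfap4 (0.74), against a median of 1.43.

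Other genes of the same pathways were almost not measured under a usable name. The lists of cell polarity (60 genes), Ras, Rap, Ral, Rab and Arf GTPases (131) and the cilium (106) had 4 matched genes together, of which 3 are the members Llgl1, Rap2b and B9d1. The remaining gene, Rasd1, a dexamethasone-induced Ras relative, read above background on a single GFP-negative array and on no GFP-positive array, and was not tested. No gene of these lists outside the members thus passed the test in either direction, because none was tested, and the members say nothing of their pathways as wholes.

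Markers of other cell types moved the same way as the members. Of 132 listed marker genes 9 were matched, and all 9 were lower in GFP-positive cells by limma (adjusted p 8.17e-06 for Zbtb18 to 0.0114 for Cebpb). Bcl2a1b and Lgals1 were above background on no GFP-positive array, so they passed the filter on dim probes only through their GFP-negative arrays. Among the 160 tested genes with a symbol 12.5% were called lower, and among all tested probes 9.1%. The markers and the members are themselves most of the genes behind the 12.5%, so that share is not a separate background. The marker lists were chosen with earlier results of these data known, so the count and its p values are a description, not a test. The excitatory neuron genes Lhx2, Pou3f3 and Zbtb18 summed to deposited signals of 988249 to 1340626 on the GFP-negative and 75125 to 119300 on the GFP-positive arrays. Zbtb18 made up most of that sum, and the genes differed in the normalized signal left, at 3.48% for Lhx2, 7.87% for Zbtb18 and 33.3% for Pou3f3. The alpha-globin gene Hba-a1 read 516520 to 1028393 against 14743 to 54179, and the glial gene Mt3 28624 to 107452 against 3216 to 8952. The mesenchymal genes Mfap4 and Lgals1 summed to 9229 to 19874 against 1565 to 3073, and the myeloid genes Cebpb and Bcl2a1b to 11862 to 31906 against 1571 to 7593. In the GFP-positive sums the parts of Lgals1 and Bcl2a1b were not above background. No marker of neural progenitors, endothelial cells or ependymal cells was matched, so the cells that might hold polarity and cilium transcripts could not be followed. The part of these cells in the members' differences was not tested, and in such bulk samples fewer cells of a type and less RNA per cell cannot be told apart.

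**Figure D5:**
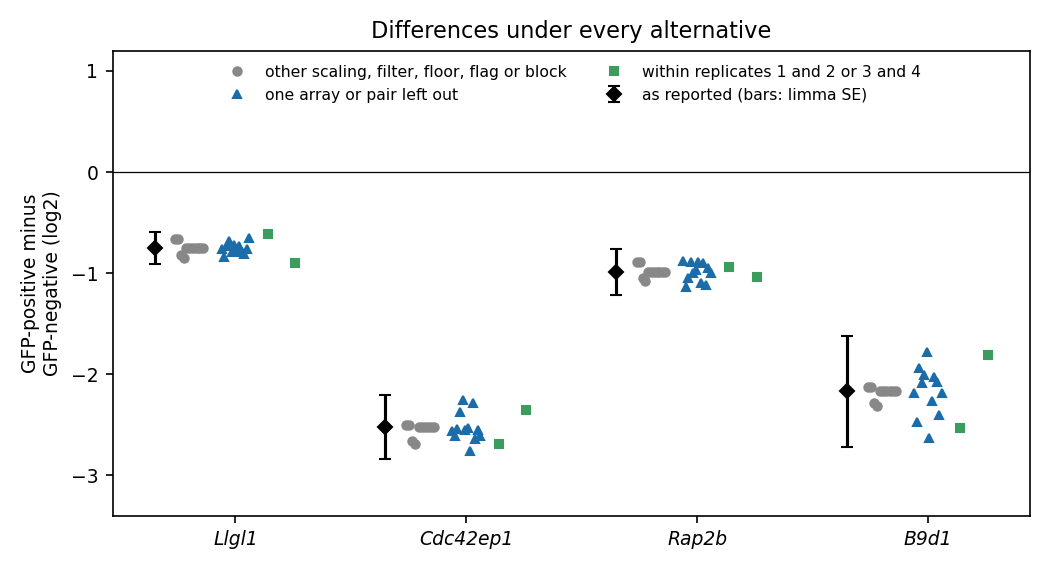
GFP-positive minus GFP-negative log2 difference of each member as reported (black, with limma SE) and under every alternative. Llgl1 stays between -0.90 and -0.61, Rap2b between -1.14 and -0.88, Cdc42ep1 between -2.76 and -2.25 and B9d1 between -2.63 and -1.78.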

How the data were processed

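Each of the 4 array tables holds 1 GFP-negative and 1 GFP-positive array with 33012 gene probes and 303 control rows. The authors deposited each spot's brightness as a linear signal intensity, with array medians left unequal (661.6 to 1079). They also deposited a signal-to-noise score for each spot, per the file headers, and quality flags. The deposited series matrix holds a ratio, found here to be the signal over that array's median gene-probe signal, leaving out flags of 5000 or more. The scanner, software and background step were not given in the sources used here.

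Signals were set to at least 1, log2-transformed and put through quantile normalization. The 16875 probes that scored 3 or more on any 4 arrays or more were fitted with limma 3.58.1 under R 4.3.3 (lmFit, eBayes, no block; Benjamini-Hochberg adjustment). Differences are GFP-positive minus GFP-negative. Symbols came from the RefSeq table of GRCm38.p6 and matched 317 probes of 311 genes. For genes with more than 1 tested probe the brightest by mean signal was taken.

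Same-numbered arrays deviated together from their fractions' means, with correlations of 0.35 to 0.52 across probes, against -0.39 to 0.16 for other combinations. Subtracting those means ties the correlations together, so positive same-numbered values push the others down. Each table also holds 1 number, so the shares were taken within same-numbered pairs. Except where a block is named, the SEs, calls and adjusted p values come from the fit with no block, which ignores the pairing. With the replicate number as a block the SE was 0.12 for Llgl1, 0.21 for Cdc42ep1, 0.14 for Rap2b and 0.21 for B9d1. The members, lists and tests were chosen with earlier results of these data known, and the genes named are the members, the matched genes of the lists (1 list is not reported here), and the 3 nearest profiles of each member. The number of arrays limits the precision. Alternatives covered scaling, the filter, the floor, flags, blocks, batches and leaving out arrays or pairs.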

Additional observations from a re-analysis of the deposited data

Results flagged for a closer look

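Of 26 sets of 4 arrays examined (the members and the matched markers in each fraction), 2 held a value far from the other 3, and chance gives about 1 in 20. Neither belongs to a member. Hba-a1 in GFP-negative replicate 2 read 19.05 on the normalized log2 scale, while the fraction's other arrays read 19.39 to 19.45. That array also read lowest of its fraction for all 4 members. The other value was 13.19 for Pou3f3 in GFP-positive replicate 2, where the remaining arrays read 12.34 to 12.44.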

How the results depend on the processing

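The difference of every member kept its sign and moved by less than 1 within-fraction SD under each of the 24 alternatives run for Cdc42ep1 and B9d1 and the 25 for Llgl1 and Rap2b, since the filter on all 8 arrays removes the former genes. Leaving out arrays or pairs gave -0.84 to -0.65 for Llgl1, -2.76 to -2.25 for Cdc42ep1, -1.14 to -0.88 for Rap2b and -2.63 to -1.78 for B9d1. The count of members called lower, 4 as reported, was 2 with median scaling, the authors' ratio, no scaling and kit control scaling, 1 with no filter, 2 with a score of at least 3 on all 8 arrays (both that were tested), 2 within replicates 1 and 2 (Cdc42ep1 and B9d1), 1 within replicates 3 and 4, and 1 to 4 when arrays or pairs were left out. It was 4 with the replicate block and with the batch block. The batch block sets replicates 1 and 2 against replicates 3 and 4, a split made here, since the sample labels give no batch. B9d1 was above background on 1 GFP-positive array with a score of at least 5. Of 16875 probes 2441 were called, 906 higher and 1535 lower. With the replicate block 4043 were called, 1830 higher, so the paired fit made more calls. With the batch block 1434 were higher. Higher calls numbered 488 with no scaling and 439 with kit control scaling, and lower calls 950 with the filter on all 8 arrays. Within replicates 1 and 2 alone 1088 were called (339 higher, 749 lower), and within replicates 3 and 4 alone 1173 (354 higher, 819 lower), with fewer arrays in each fit. Leaving out arrays or pairs gave 1529 to 2409 calls, 461 to 917 higher. Of the 222 marker gene values under alternatives, 214 kept their call, 8 lost it and 0 changed sign. Signals near background limit Cdc42ep1 and B9d1 in GFP-positive cells.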
